A study of Bombyx mori with 12 samples.

Results

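The transcriptomes of TBH and WT ovaries of the silkworm Bombyx mori were compared at the pupal stage P4, gene by gene and by gene class. The genes compared were those with a deposited value of at least 1 in at least 3 of the 6 ovary samples of this stage, which held for 4289 of the 15745 genes in the table. Ovaries were dissected from female pupae, total RNA was sequenced, and each group had 3 samples, TBH P4 replicates 1 to 3 and WT P4 replicates 1 to 3. The series describes a genetic silkworm model in which hyperproteinemia, an excess of protein in the hemolymph, harms female reproduction, and the comparison at P4 asks which ovarian transcripts differ with the line at the later of its 2 stages. The labels give the line only as TBH or WT: they do not spell out TBH and name no allele, promoter or tissue in which the change acts. Age is given only as the stage, and the protocol in the labels names 5 female pupae and n = 3 without saying whether a sample pools several animals. No sample received a treatment that the labels name.

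The silkworm ovary is a set of egg tubes in which germ cells, nurse cells and a follicular epithelium grow together through the pupal period. Yolk proteins such as vitellogenin are made mainly in the fat body, carried in the hemolymph and taken up by the oocytes, so the ovary is in close exchange with the proteins of the blood. The follicle cells later secrete the vitelline membrane and then the chorion, the layers of the eggshell. Glutathione S-transferases and other detoxifying enzymes, antibacterial peptides, and the machinery that makes, folds and degrades proteins are gene classes known to respond to stress in insect tissues.

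Levels below are the deposited expression values, a normalized signal with 2 decimals whose unit is not named. The values of a sample summed to between 500449.1 and 606967.4 at P4, the depth in reads is unknown, and the precision rests on 3 samples a group. An exact 0 can be a failed estimate, since the germline gene SIWI, the eggshell gene VMP25 and tropomyosin 1 were at 0 in all 6 samples, so a value of this kind is called listed at 0 and no fold is given against it. TBH P4 replicate 3 stood apart, with 7485 genes above 0 against 6530 to 6693 in the other 5 samples and a median log2 value of 3.81 against 3.02 to 3.17. It lay above both other TBH samples in 72.4% of the tested genes. Of the 9 genes of the germline, yolk and eggshell list, 7 were above 0 in some sample, and their values summed to 450.5 to 550.4 in TBH and 558 to 1243 in WT. The eggshell gene VMP23 made up most of that sum, and the only chorion class gene of the list reached 0.20 in 1 sample.

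Of the 4289 tested genes, 65 (1.52%) rose and 52 (1.21%) fell in TBH relative to WT at a limma adjusted p under 0.05, which is 2.73% together. None of the 117 had overlapping groups, a separation that held upward in 15.6% and downward in 7.37% of all tested genes. An unadjusted p under 0.05 was reached by 362 genes upward (8.44%) and 207 downward (4.83%). The log2 values of all genes were shifted by a median of 0.19 toward TBH, and relative log2 changes below have this shift removed, whereas the p-values test the values as they are. The shift was -0.02 without TBH P4 replicate 3 and 0.27 with all samples scaled to equal totals. Among the genes that passed, the relative log2 change ran from 0.71 to 6.82 upward and from -8.10 to -1.48 downward. Upward calls were 55.6% of all calls, and 44.8% with quantile normalization (78 higher, 96 lower).

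**Figure D1:**
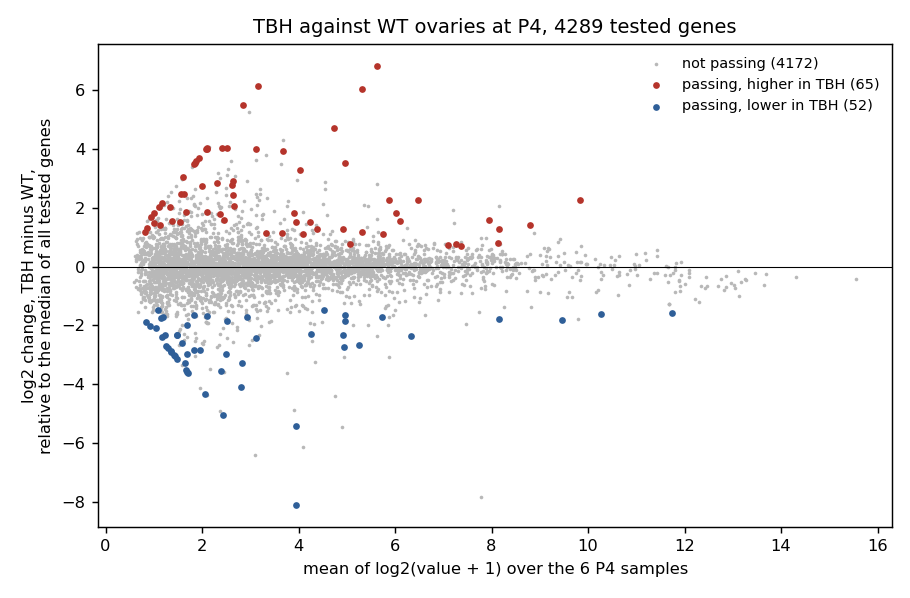
Relative log2 change between TBH and WT ovaries at P4 (TBH minus WT, median of all genes subtracted) against the mean log2(value + 1) over the 6 samples, with 1 point for each of the 4289 tested genes. The 65 genes that passed upward and the 52 that passed downward are coloured, and many of them lie at low to middling levels.

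Levels among the called genes ranged widely. The mean in the higher group was under 10 for 18 of the 65 genes higher in TBH and 28 of the 52 lower in TBH, and over 100 for 16 and 6 of them. Of the genes that rose, 23 had reached the filter only through TBH, with all TBH samples and no WT sample at 1 or more, and 27 of those that fell had reached it only through WT. Such genes had to differ to be tested, and among all tested genes there were 84 and 60 of them. Among the calls described below, the cecropin B copy BGIBMGA000037, BMORCPR49 and BGIBMGA000885 reached the filter only through TBH. The alkaline phosphatase ALP-M, the histone deacetylase, the ubiquitin hydrolase and BGIBMGA010030 reached it only through WT. For 14 genes that rose all 3 WT samples were listed at 0, and for 15 that fell all 3 TBH samples were.

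Most of the called genes carry no name or product. The table gives an informative name or product for 549 of the 4289 tested genes and for 9 of the 65 that rose and 7 of the 52 that fell, so that 86.3% of the calls and 87.2% of the tested genes are unnamed. The named calls fell into detoxification, glycan and matrix proteins, immunity, cuticle, protein folding and turnover, respiration and chromatin.

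**Figure D2:**
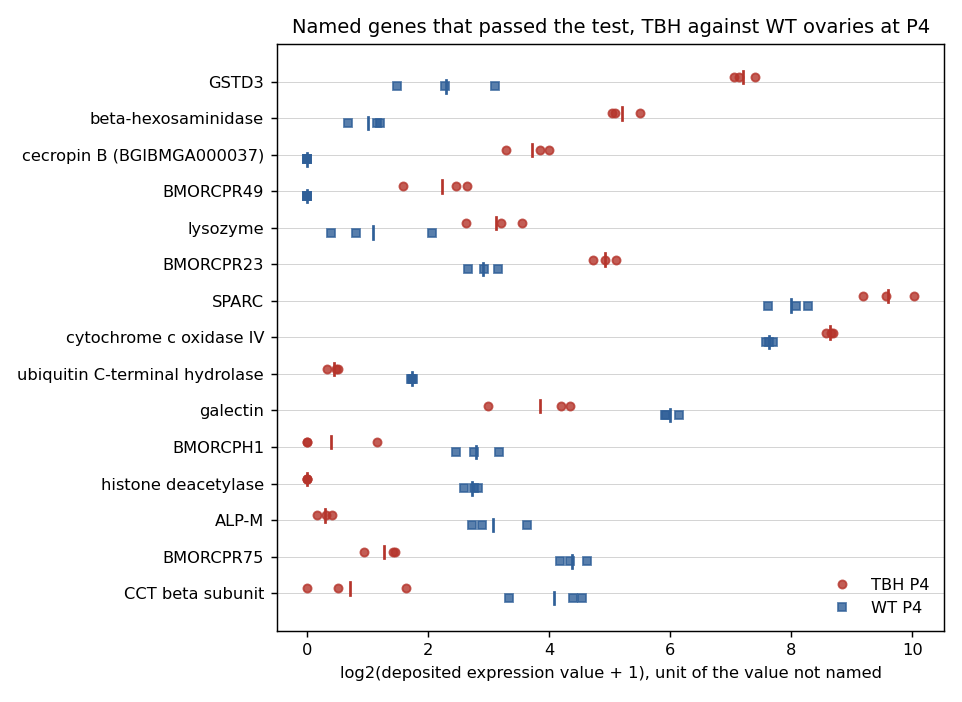
Values of the named genes that passed the test and are described here, as log2(value + 1) in each sample (circles TBH, squares WT, vertical bars the mean of 3 samples). GSTD3 and the beta-hexosaminidase show the widest gaps upward among genes above 0 in both groups, and the CCT beta subunit, BMORCPR75 and ALP-M the widest gaps downward.

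The detoxification and antioxidant list held 19 tested genes, of which 2 rose, 0 fell and 17 did not pass. GSTD3 (BGIBMGA002211), of the glutathione S-transferases, which couple reactive compounds to glutathione, stood at 139.7, 133 and 168 in the TBH samples and at 7.59, 3.88 and 1.79 in the WT samples. Every TBH sample was far above every WT sample, and TBH P4 replicate 3 was the highest. The means were 147 ± 18.9 and 4.42 ± 2.94 (SD, n = 3 each), a 33.2-fold difference, with a relative log2 change of 4.72 ± 0.36 (SE) and a limma adjusted p of 2.5e-05. Its call held in all 18 alternative settings (adjusted p up to 0.0049). The rest of the class did not share this size of difference. Glutathione peroxidase (GPX, BGIBMGA011438), which reduces peroxides with glutathione, stood at 98.1, 115 and 168 in TBH and 54.4, 64.5 and 56.02 in WT, without overlap but short of the threshold (limma adjusted p = 0.239). The peroxiredoxin JAFRAC1 (BGIBMGA002186), another peroxide-reducing enzyme, stood at 1163, 1243 and 619.5 in TBH and 1622, 1287 and 1504 in WT, the TBH samples being the lower ones (limma adjusted p = 0.568). Over the list, 7 genes were higher and 2 lower without overlap of the groups (15.6% and 7.37% of all genes), and the median log2 change was 0.18 above that of all genes.

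Among enzymes and proteins of the cell surface and matrix, 14 were tested, and 2 rose and 1 fell, while the median of the list was -0.06 relative to all genes. The beta-hexosaminidase BGIBMGA004194, which trims hexosamine sugars off the ends of glycans, was at 31.7, 33.00 and 44.5 in TBH and near the bottom of the scale in WT, at 0.59, 1.23 and 1.31. The groups were far apart, with means of 36.4 ± 7.02 and 1.04 ± 0.39 (SD, n = 3 each), a relative log2 change of 4.01 ± 0.33 (SE) and a limma adjusted p of 3.6e-05 that stayed under the threshold in all 18 alternatives. SPARC (BGIBMGA013448), a collagen-binding glycoprotein of basement membranes, was abundant in both lines, at 582, 758 and 1045 in TBH and 308, 196 and 270.5 in WT. All TBH samples exceeded all WT samples, with TBH P4 replicate 3 the highest, and the means differed 3.08-fold (relative log2 change 1.42 ± 0.30, limma adjusted p = 0.014). The call of SPARC ended in 5 of 18 alternatives, including those without WT P4 replicate 2 or TBH P4 replicate 2 or 3 (adjusted p up to 0.083). The membrane-bound alkaline phosphatase ALP-M (BGIBMGA008818), which removes phosphate groups at cell surfaces, went the other way, at 0.12, 0.33 and 0.24 in TBH and 6.38, 11.5 and 5.58 in WT. ALP-M was close to 0 in every TBH sample and had a relative log2 change of -2.97 ± 0.32 (limma adjusted p = 0.00053), held in all 17 alternatives that gave a value. Because its TBH values lie under the pseudocount, that log2 change depends on it and was -4.77 with a pseudocount of 0.1. ALP-M reached the filter only through WT, so it had to differ to be tested.

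Immune recognition, signalling and antimicrobial genes numbered 13, of which 2 rose, 1 fell and 10 did not pass, with a median 0.18 above that of all genes (from -0.06 to 0.70 over the alternatives). Cecropin B, a secreted antibacterial peptide, is listed under 5 tested gene IDs. The copy BGIBMGA000037 was listed at 0 in every WT sample but at 14.96, 13.4 and 8.80 in TBH, and it was the only copy that passed (limma adjusted p = 0.014). The copies BGIBMGA000036 and BGIBMGA000038 carried identical values, 27.4, 6.71 and 2.20 in TBH and 0 in every WT sample (limma adjusted p = 0.106). The copy BGIBMGA000023 stood at 27.4, 20.2 and 17.6 in TBH and at 0, 16.8 and 0 in WT, and BGIBMGA000021 at 22.4, 13.4 and 13.2 in TBH and 0, 0 and 29.9 in WT. Every TBH sample had a value above 0 for all 5 IDs, while WT P4 replicate 1 was listed at 0 for all 5 and WT P4 replicates 2 and 3 had a value for 1 ID each. The filter fixed much of this pattern. BGIBMGA000036, BGIBMGA000037 and BGIBMGA000038, at 0 in WT, could be tested only with every TBH sample at 1 or more. BGIBMGA000021 and BGIBMGA000023, each above 0 in 1 WT sample, needed at least 2 TBH samples at 1 or more. Near-identical copies can share reads, so the level of any single copy is uncertain. The call of BGIBMGA000037 ended without any of WT P4 replicates 1 and 2 and TBH P4 replicates 1 and 2 (adjusted p up to 0.064).

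The lysozyme BGIBMGA010439, an enzyme that breaks the wall of bacteria, stood at 5.15, 10.8 and 8.22 in TBH and 3.17, 0.75 and 0.32 in WT, all TBH samples being above all WT samples (relative log2 change 1.85 ± 0.46, limma adjusted p = 0.039). This call ended in 10 of 17 alternatives, including those without any single sample except WT P4 replicate 1 (adjusted p up to 0.150). A galectin (BGIBMGA014456), a lectin that binds galactose-containing sugars, was lower in TBH, at 17.3, 19.3 and 6.97 against 60.01, 69.9 and 59.6 in WT. The WT samples lay close together, TBH P4 replicate 3 was the lowest sample, and the means differed 4.35-fold (relative log2 change -2.34 ± 0.42, limma adjusted p = 0.019). The galectin call ended in 6 of 18 alternatives, including those without any single WT sample or TBH P4 replicate 3 (adjusted p up to 0.092). TRAF6 (BGIBMGA001290), an adaptor that relays signals of immune receptors in insects and vertebrates, was listed at 0, 0 and 2.29 in TBH, with WT at 3.36, 5.57 and 7.90 (limma adjusted p = 0.08). It passed in 4 of 17 alternatives, among them that without TBH P4 replicate 3, the only TBH sample above 0. Peptidoglycan recognition protein PGRP-S1 (BGIBMGA008038), a sensor of bacterial walls, stood at 158 ± 62.2 in TBH and 262 ± 119.6 in WT with overlapping samples (SD, n = 3 each, limma adjusted p = 0.551).

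Cuticle protein genes, which code for the chitin-binding and other proteins of the exoskeleton and of trachea, gave calls in both directions: of 29 tested members, 2 rose, 2 fell and 25 did not pass. BMORCPR23 (BGIBMGA000346) stood at 33.4, 29.3 and 25.6 in TBH and 5.32, 6.55 and 7.86 in WT, separate in every sample (4.47-fold, relative log2 change 1.83 ± 0.36, limma adjusted p = 0.01). BMORCPR49 (BGIBMGA005148) was listed at 0 in every WT sample but at 5.21, 4.49 and 2.00 in TBH (limma adjusted p = 0.0048). BMORCPR115 (BGIBMGA000256) showed the same arrangement, with 3.85, 3.82 and 4.42 in TBH and 0 in all WT samples, but did not pass (limma adjusted p = 0.123). Both genes, at 0 in WT, could reach the filter only through TBH, so the filter fixed this arrangement. The opposite direction held for BMORCPR75 (BGIBMGA002362), at 0.92, 1.74 and 1.68 in TBH and 17.02, 19.3 and 23.7 in WT (13.8-fold lower, relative log2 change -3.29 ± 0.58, limma adjusted p = 0.013). BMORCPH1 (BGIBMGA009714) was listed at 0, 1.24 and 0 in TBH and 8.03, 5.79 and 4.48 in WT (limma adjusted p = 0.018). The role of each single member of these large families in the ovary is not known here, and their levels were low beside the summed cuticle list, which came to 1675 to 3052 in TBH and 1859 to 4177 in WT. Of the 181 genes of the cuticle list, 39 were at 0 in all 6 samples. The part of attached cuticle or trachea in these differences was not tested. The call of BMORCPR23 ended in 5 of 18 alternatives (adjusted p up to 0.077), among which were the fits lacking TBH P4 replicate 1, WT P4 replicate 1 or WT P4 replicate 2. That of BMORCPR75 ended when TBH P4 replicate 1, WT P4 replicate 2 or WT P4 replicate 3 was left out (up to 0.064). That of BMORCPH1 ended in 6 of 17 (up to 0.089), among which were the fits lacking TBH P4 replicate 1 or 3 or WT P4 replicate 1 or 2. BMORCPR49 lost its call only with centring on each sample's median (0.075).

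Genes of tissues that lie on or around the ovary were measured beside these. Of 3 tested muscle genes, which the ovarian sheath expresses, 0 passed, and 2 were lower in TBH without overlap (7.37% of all genes). The regulatory light chain of myosin MLC-2 (BGIBMGA002259) stood at 412, 298 and 217 in TBH and 663, 791 and 622 in WT, and muscle actin A1 (BGIBMGA013945) at 788, 587 and 502 in TBH and 884, 1283 and 851 in WT. For both genes the highest TBH sample lay under the lowest WT sample, and the limma adjusted p was 0.096 for MLC-2 and 0.353 for A1. Muscular protein 20 (BGIBMGA001201), the other tested gene, overlapped between the lines, at 50.8, 44.2 and 37.5 in TBH and 45.95, 63.9 and 36.9 in WT (limma adjusted p = 0.958). Myosin light polypeptide 9 (BGIBMGA012961), which did not reach the filter, was higher in every TBH sample, at 1.30, 1.02 and 0.82 against 0.34, 0 and 0 in WT. The 6 muscle genes summed to 758.5 to 1252 in TBH and 1510.0 to 2138 in WT, with tropomyosin 1 at 0 throughout. As a share of all listed values, they made up 0.178% ± 0.035 in TBH and 0.298% ± 0.050 in WT (SD, n = 3 each, two-sided exact permutation p = 0.1, the smallest p that 3 samples against 3 allow). In whole ovaries, fewer cells of a type and less RNA per cell cannot be told apart. The hemocyte enzyme prophenoloxidase subunit 2 (PRO-PO2, BGIBMGA013115), a precursor of the melanizing enzyme of insect blood, stood at 24.9, 24.8 and 21.4 in TBH and 44.5, 40.2 and 44.6 in WT without overlap (limma adjusted p = 0.222), while hemocytin was at 0 in all 6 samples. Fat body and hemolymph genes summed to 148 to 251 in TBH and 107.5 to 168 in WT, and none of their 3 tested members passed. The highest of them, the 30kDa protein BGIBMGA004454, stood at 121, 116 and 236 in TBH and 89.8, 149 and 105 in WT, so that TBH P4 replicate 3 was the highest sample and the other samples overlapped. The part of these tissues in the other differences was not tested.

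In the germline, yolk and eggshell list and the hormone signalling list, 0 of 5 and 0 of 7 tested members passed. Vitellogenin, though made mainly in the fat body, was counted in the first list and not among the fat body genes. VMP23 (BGIBMGA006755), which builds the vitelline membrane, stood at 504, 401 and 442 in TBH and 534, 1210.4 and 608 in WT, all TBH samples being the lower ones and WT P4 replicate 2 the highest by far (limma adjusted p = 0.381). Vitellogenin (VG, BGIBMGA004585), the yolk precursor, stood at only 1.91, 3.53 and 3.36 in TBH and 2.06, 10.9 and 2.10 in WT (limma adjusted p = 0.91), and without WT P4 replicate 2, its highest sample, its relative log2 change turned from -0.51 to 0.12. The 3 transcription factors of the germline, yolk and eggshell list differed in direction. C/EBPG (BGIBMGA004336), an ovary C/EBP factor, stood at 39.04, 38.8 and 56.02 in TBH and 15.6, 19.8 and 27.6 in WT (2.13-fold, limma adjusted p = 0.13). CBZ (BGIBMGA006415), a bZIP factor named for the chorion, stood at 5.93, 7.49 and 17.8 in TBH and 0.03, 0.51 and 2.72 in WT (limma adjusted p = 0.232). In both genes the groups did not overlap and TBH P4 replicate 3 was the highest. The chorion-specific C/EBP (BGIBMGA013687) was listed at 0, 0 and 2.27 in TBH and 5.67, 1.22 and 3.14 in WT, lower on average in TBH with overlapping samples (limma adjusted p = 0.492). Of the hormone genes, the insulin-like growth factor-like peptide IGFLP (BGIBMGA012305), a peptide hormone that the silkworm fat body secretes in the pupa, was at 143, 124 and 47.8 in TBH and 314, 311 and 346 in WT. The WT samples were within a narrow band above all TBH samples, the means differed 3.08-fold, and the gene did not pass (relative log2 change -1.94 ± 0.48, limma adjusted p = 0.081). DIB (BGIBMGA000368), a P450 enzyme of ecdysteroid synthesis, stood at 2.49, 3.05 and 6.15 in TBH and 6.94, 9.96 and 11.9 in WT, again without overlap (limma adjusted p = 0.258).

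In the unscaled values of all samples, the median log2 change of the genes that translate mRNA lay above that of all genes. The median log2 change of the genes that build the ribosome lay below that of all genes, which rested on 1 sample. Of 29 tested translation factors and tRNA ligases, 0 passed, 8 were higher and 0 lower at an unadjusted p under 0.05 (8.44% and 4.83% of all genes), and 13 were higher and 0 lower without overlap of the groups (15.6% and 7.37% of all genes). The list's median log2 change was 0.16 above that of all genes and stayed between 0.13 and 0.28 in all 18 alternatives. The change of 23 of 29 members lay above the median of all genes. They made up 3.53%, 3.62% and 3.65% of the listed values in the TBH samples and 3.04%, 2.87% and 3.21% in the WT samples, so that every TBH sample held a larger share. The means were 3.60% ± 0.06 and 3.04% ± 0.17 (SD, n = 3 each, two-sided exact permutation p = 0.1, the smallest possible). The smallest p of the list belonged to subunit 2 of initiation factor eIF2 (BGIBMGA001437), part of the complex that brings the initiator tRNA to the ribosome, at 138, 146 and 184 in TBH and 66.2, 93.97 and 82.3 in WT (1.93-fold, limma adjusted p = 0.082). Glycine-tRNA ligase (BGIBMGA007637), which charges tRNA with glycine, stood at 55.2, 51.6 and 70.2 in TBH and 29.97, 37.8 and 33.9 in WT (limma adjusted p = 0.12). Elongation factor TEF2 (BGIBMGA004165), which moves the ribosome along the mRNA, stood at 616, 646 and 599 in TBH and 25.8, 199.8 and 407 in WT. TEF2 was nearly level across TBH and spread widely across WT, with WT P4 replicate 1 the lowest (limma adjusted p = 0.158, and 0.037 without WT P4 replicate 3, the highest WT sample).

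Of 43 tested cytosolic ribosomal protein genes, 0 passed, and 0 were higher and 1 lower at an unadjusted p under 0.05 (8.44% and 4.83% of all genes). The log2 change of 34 of them lay below the median of all genes. The list's median log2 change was -0.34 relative to all genes, but this rested on 1 sample: it was 0.13 without TBH P4 replicate 3, 0.01 with quantile normalization and 0.03 with sample weights. Ribosomal proteins made up 34.0%, 35.7% and 23.7% of the listed values in the TBH samples and 33.5%, 34.0% and 36.2% in the WT samples, so only TBH P4 replicate 3 stood outside the range of the others. The means were 31.1% ± 6.52 and 34.6% ± 1.41 (SD, n = 3 each, two-sided exact permutation p = 0.7), and the TBH mean was 34.9% without replicate 3. Ribosomal protein P0 (RPP0, BGIBMGA003309), of the stalk that recruits elongation factors, was the member under the unadjusted threshold, at 4133, 4486 and 2267 in TBH and 6239, 6568 and 6934 in WT (limma adjusted p = 0.287). RPSA (BGIBMGA007311), of the small subunit, stood at 5374, 5217 and 3256 in TBH and 6619, 6192 and 7087 in WT (limma adjusted p = 0.53). Both had all TBH samples under all WT samples, with TBH P4 replicate 3 the lowest.

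**Figure D3:**
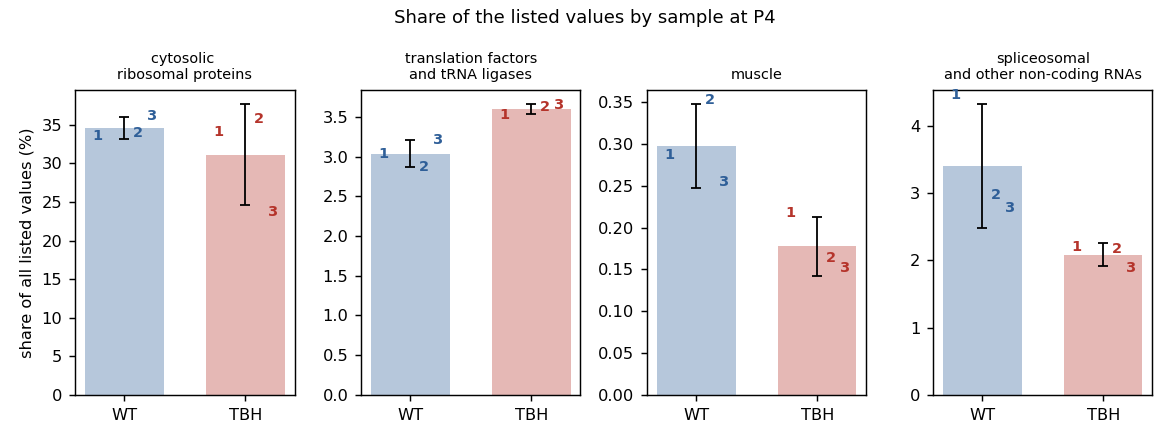
Share of all listed values taken by 4 gene lists in each P4 sample, in percent (bars the mean of 3 samples, error bars the SD, digits the replicate number). The share of translation factors and tRNA ligases is higher in every TBH sample than in any WT sample. The shares of muscle genes and of non-coding RNAs are lower in every TBH sample than in any WT sample. The non-coding share counts the identical value of 3 ribosomal RNA genes 3 times, so it does not show a difference across that class. The ribosomal protein share differs mainly through TBH P4 replicate 3.

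Folding and degradation of proteins gave 1 call each, both downward. Of 35 tested heat shock proteins, chaperonins and folding enzymes, 1 fell, 0 rose and 34 missed the threshold, and the median was 0.06 above that of all genes. The gene that fell codes for a beta subunit of CCT (BGIBMGA001206), the ring-shaped chaperonin that folds actin and tubulin, and stood at 0, 0.42 and 2.10 in TBH and 19.9, 22.2 and 9.06 in WT (limma adjusted p = 0.033). Its call ended in 8 of 17 alternatives, including those lacking TBH P4 replicate 1 or 2 or WT P4 replicate 1 or 2 (adjusted p up to 0.137). Other subunits of the same ring were far more abundant and lay the other way. The alpha subunit (BGIBMGA006263) stood at 133, 136 and 184 in TBH and 91.8, 91.7 and 85.01 in WT, and the zeta subunit (BGIBMGA013116) at 162, 188 and 216 in TBH and 133, 128 and 136 in WT. Neither passed (limma adjusted p = 0.217 and 0.223), but in both all TBH samples exceeded all WT samples. The prolyl isomerase FKBP12 (BGIBMGA004331), a folding enzyme, stood at 328, 412 and 419 in TBH and 287, 221 and 198 in WT (limma adjusted p = 0.091), and the small heat shock protein HSP20.4 (BGIBMGA004541), which holds unfolded proteins, at 4102, 4213 and 2628 in TBH and 5827, 7214 and 8669 in WT (limma adjusted p = 0.166). FKBP12 was thus higher and HSP20.4 lower in every TBH sample.

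Of 35 tested proteasome, ubiquitin and autophagy genes, 0 rose, 1 fell and 34 did not pass. A ubiquitin carboxyl-terminal hydrolase (BGIBMGA013218), an enzyme that removes ubiquitin from proteins, stood at 0.42, 0.39 and 0.26 in TBH and 2.37, 2.28 and 2.34 in WT. The replicates agreed closely within each line at a low level, and the limma adjusted p of 0.04 was among those just under the threshold. That call ended in 14 of 17 alternatives, including those without any single sample (adjusted p up to 0.189). ATG8 (BGIBMGA011783), the ubiquitin-like protein that coats autophagosomes, stood at 282, 313 and 526 in TBH and 233, 243 and 225 in WT, TBH P4 replicate 3 being the highest (limma adjusted p = 0.286). DDRGK1 (BGIBMGA011004), which in mammals takes part in the attachment of the ubiquitin-like modifier UFM1, stood at 27.7, 30.3 and 52.7 in TBH and 16.8, 19.3 and 21.4 in WT (limma adjusted p = 0.162).

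In the respiratory chain and ATP synthase list, 1 of 15 tested genes rose, 0 fell and 14 missed the threshold, and the median was 0.01 relative to all genes. Subunit IV of cytochrome c oxidase (BGIBMGA013680), a nuclear-encoded part of the last complex of the chain, stood at 381, 410.1 and 402 in TBH and 191, 197 and 208 in WT. Both lines had a narrow spread, and the means of 398 ± 14.9 and 198 ± 8.61 (SD, n = 3 each) differed 2.00-fold. Its limma adjusted p of 0.049 lay just inside the threshold, and the call ended in 14 of 18 alternatives, including those without any single sample (adjusted p up to 0.392). Subunit 6A of the same complex (BGIBMGA005511) lay just outside, at 537, 722 and 1079 in TBH and 317, 265 and 319 in WT (2.60-fold, limma adjusted p = 0.072). Subunit d of ATP synthase (BGIBMGA011936) stood at 1226, 1285 and 1446 in TBH and 1016, 936 and 935 in WT (limma adjusted p = 0.152). In all 3 genes every TBH sample was above every WT sample, and over the list 7 genes were higher and 1 lower in this way (15.6% and 7.37% of all genes).

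Among 15 tested histone and chromatin genes, 1 fell, 0 rose and 14 missed the threshold, and the median of 0.32 above that of all genes came to 0.03 without TBH P4 replicate 3. A histone deacetylase (BGIBMGA011747), an enzyme that takes acetyl groups off histones, was listed at 0 in every TBH sample, with WT at 5.74, 5.02 and 6.07 (limma adjusted p = 0.024). This call ended in 9 of 17 alternatives, including those without any single sample (adjusted p up to 0.087). The chromatin protein HMGA (BGIBMGA004695), which binds AT-rich DNA, stood at 704, 1121 and 1274 in TBH and 495, 461 and 444 in WT (2.21-fold, limma adjusted p = 0.097). The histone variant H2AX-L (BGIBMGA010883) stood at 16.4, 35.8 and 38.04 in TBH and 2.16, 1.58 and 28.6 in WT, overlapping only through WT P4 replicate 3 (limma adjusted p = 0.202, and 0.0061 without that sample). Histone H4 (BGIBMGA009647) stood at 1028, 1052 and 676 in TBH and 1066, 1623 and 1759.7 in WT, with TBH P4 replicate 3 the lowest (limma adjusted p = 0.594).

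**Figure D4:**
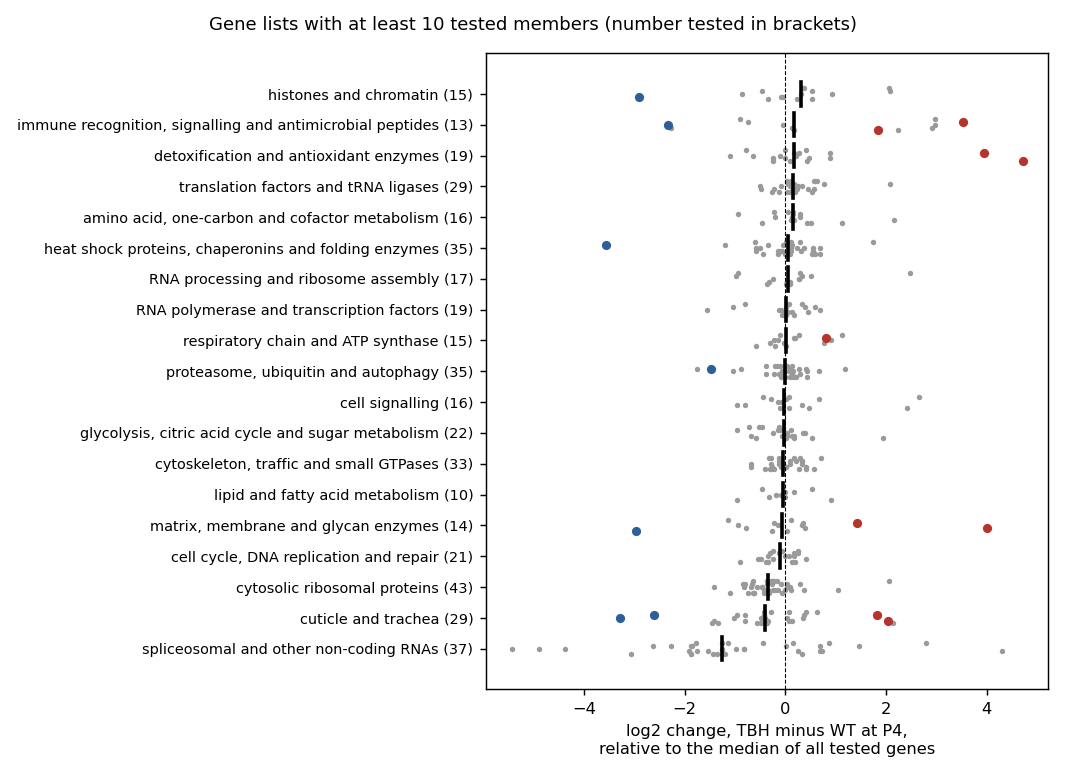
Relative log2 change between TBH and WT ovaries at P4 for each tested gene (points) of the 19 gene lists with at least 10 tested members, with the list median as a black bar and the genes that passed in colour. The list medians run from -0.41 for cuticle and trachea to 0.32 for histones and chromatin, apart from the non-coding RNAs, at -1.26.

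In the metabolic, signalling and transport lists no gene passed. In amino acid metabolism 0 of 16 passed. The dioxygenase of methionine salvage (BGIBMGA005810) stood at 34.5, 47.5 and 44.8 in TBH and 73.6, 65.5 and 76.3 in WT, the TBH samples being lower (limma adjusted p = 0.142). Among 10 lipid genes, isovaleryl-CoA dehydrogenase (IVD, BGIBMGA000236), a mitochondrial enzyme of leucine breakdown, stood at 14.8, 14.5 and 14.8 in TBH and 4.94, 6.91 and 7.38 in WT (2.29-fold, limma adjusted p = 0.083). Among 22 genes of glycolysis and the citric acid cycle, glucose-6-phosphate isomerase (BGIBMGA004221) stood at 71.7, 78.98 and 99.7 in TBH and 52.5, 56.00 and 61.2 in WT (limma adjusted p = 0.321). Among 16 signalling genes, a guanylate cyclase (BGIBMGA006891), which makes the messenger cGMP, stood at 12.99, 9.97 and 16.9 in TBH and 1.09, 1.51 and 1.31 in WT (10.2-fold, limma adjusted p = 0.073), and a serine/threonine phosphatase (BGIBMGA013230) was listed at 6.84, 6.68 and 14.2 in TBH and 0, 0 and 1.53 in WT (limma adjusted p = 0.144). Serpin-14 (BGIBMGA013958), of the serine protease inhibitors, stood at 3.55, 4.95 and 12.2 in TBH and 3.32, 2.36 and 1.81 in WT (limma adjusted p = 0.343), 1 of 7 tested proteases and inhibitors. In each of these genes, picked for a small p in their list, the groups did not overlap. Among all genes this held upward in 15.6% and downward in 7.37%. Counts of such genes, higher and lower, were 3 and 1 in amino acid metabolism, 3 and 0 in lipid metabolism and 5 and 2 in glycolysis. They were 4 and 0 in signalling and 1 and 0 among proteases and inhibitors.

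The lists of gene expression and cell structure stayed near the median log2 change of all genes, again with 0 genes passing. Of 19 tested RNA polymerase and transcription genes, the elongation factor SPT5 (BGIBMGA003759), which stays with RNA polymerase II along the gene, stood at 2.62, 2.04 and 1.27 in TBH and 6.23, 5.43 and 8.27 in WT, and the coactivator MBF1 (BGIBMGA007702) at 133, 146 and 232 in TBH and 101, 111 and 105 in WT (limma adjusted p = 0.159 and 0.37). SPT5 was thus lower and MBF1 higher in every TBH sample. Of 33 genes of the cytoskeleton and traffic, an importin alpha (BGIBMGA003758), an adaptor of nuclear import, stood at 627, 732 and 796 in TBH and 546, 454 and 497 in WT (limma adjusted p = 0.285), and the alpha-tubulin TUA1 (BGIBMGA013413) at 9987, 9774 and 7597 in TBH and 10564, 10101 and 11092 in WT (limma adjusted p = 0.834), with all TBH samples the lower ones for TUA1. The relative log2 change of TUA1 turned from -0.41 to 0.11 with quantile normalization. The 21 cell cycle and replication genes had a median of -0.11 and the 17 RNA processing genes a median of 0.05 relative to all genes.

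Non-coding RNAs were lower in TBH by value. Of the 1122 listed non-coding RNA genes, 37 were tested, among them 10 copies of U1, 9 of U2, 4 of the large and 2 of the small ribosomal RNA, and 3 of 5.8S ribosomal RNA. Their median was -1.26 relative to all genes and stayed between -1.46 and -0.88 in the 18 alternatives. None passed at an adjusted p, 1 was higher and 7 lower at an unadjusted p under 0.05 (8.44% and 4.83% of all genes), and 0 were higher and 13 lower without overlap of the groups (15.6% and 7.37% of all genes). These counts hold duplicates, since 6 of the genes form 2 sets of identical values. With each set counted once, 33 genes remained, of which 5 were lower at an unadjusted p under 0.05 and 9 lower without overlap. As a share of all listed values they made up 2.20%, 2.16% and 1.89% in the TBH samples and 4.45%, 2.98% and 2.77% in the WT samples (two-sided exact permutation p = 0.1, the smallest possible). This share counts the identical value of the 3 tested 5.8S genes, given next, 3 times. It was not computed without the repeats, so it does not show a difference across the class. A 5.8S ribosomal RNA gene (ENSRNA022709902), a part of the large ribosomal subunit, stood at 2546, 2500.2 and 1808 in TBH and 6623, 4055 and 4025 in WT (2.15-fold lower, limma adjusted p = 0.197), and the 3 tested 5.8S genes had the same value in every sample. The spliceosomal RNAs U1 and U2, which recognise splice sites in introns, differed from copy to copy. A U2 copy (ENSRNA022711167) was listed at 0 in every TBH sample, with WT at 52.2, 8.13 and 11.6 (limma adjusted p = 0.062). This copy could reach the filter only through WT. A U1 copy (ENSRNA022710950) was listed at 0, 0 and 24.1 in TBH and 201, 109 and 19.1 in WT (limma adjusted p = 0.061), while another U1 copy (ENSRNA022711048) was listed at 139, 122 and 12.1 in TBH and 0, 0 and 19.1 in WT (limma adjusted p = 0.241). These are near-identical multicopy genes whose reads can be split between copies, so their single values are uncertain. The U2 copy, the U1 copy ENSRNA022710950 and the oxidase subunit 6A were the 3 named genes just outside the threshold, and the oxidase subunit IV and the ubiquitin hydrolase the 2 just inside it.

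The largest differences lay in genes without a name. BGIBMGA003014 stood at 518, 711 and 481 in TBH and 5.08, 9.09 and 0.37 in WT, a 118-fold difference of the means (relative log2 change 6.82 ± 0.67, limma adjusted p = 0.00016). BGIBMGA000885 was listed at 0 in every WT sample but at 61.1, 83.8 and 96.3 in TBH (limma adjusted p = 4.9e-07). In the other direction, BGIBMGA010030 was listed at 0 in every TBH sample but at 294, 239.9 and 198 in WT (limma adjusted p = 0.014), and BGIBMGA012753 was listed at 2.91, 2.96 and 0 in TBH and 96.01, 109.9 and 77.6 in WT (limma adjusted p = 0.0013). The first 2 and the last held in all 18 alternatives. That of BGIBMGA010030 ended without any single sample except WT P4 replicate 3 (adjusted p up to 0.058).

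Values at the earlier stage P2, from 3 other samples of each line, were set beside those at P4. WT P2 replicate 2 stood apart there, with 6399 genes above 0 against 7020 to 7772 in the other P2 samples. Its median log2 value was 3.05 against 3.38 to 4.09. Of the 65 genes higher in TBH at P4, 58 had a log2 change of the same sign at P2 (50.5% of all tested genes did), 42 were higher there without overlap of the groups (4.73% of all), and 28 passed upward at P2 too (0.886% of all). Of the 52 lower genes, 43 had the same sign (49.5% of all), 20 were lower without overlap (3.85% of all), and 14 passed downward there (0.513% of all). The calls at both stages come from the same limma fit with a shared spread for each gene, so they are not independent. In 7 of the genes that rose all 6 WT samples of both stages were listed at 0, and in 10 of those that fell all 6 TBH samples were. GSTD3 at P2 had means of 105 ± 3.82 in TBH and 12.6 ± 2.91 in WT, and the beta-hexosaminidase of 24.4 ± 1.54 and 0.80 ± 0.41 (SD, n = 3 each), so for both genes the lines were separate at each stage. Of the 15 named calls described here, 5 passed in the same direction at P2 as well. Beside those 2 genes they were the cecropin B copy BGIBMGA000037, at 38.1 ± 23.4 in TBH and 1.96 ± 3.39 in WT at P2 (limma adjusted p = 0.0086), the oxidase subunit IV, at 311 ± 57.4 and 114 ± 35.5 (limma adjusted p = 0.0073), and the histone deacetylase, at 0 in every TBH sample and 14.2 ± 10.3 in WT (limma adjusted p = 0.007). The CCT beta subunit was at 0.69 ± 0.44 and 17.6 ± 14.4 at P2, lower in TBH there too by value (limma adjusted p = 0.094). SPARC, the galectin and ALP-M were among the 10 that did not pass at P2. SPARC stood at 652 ± 276 in TBH and 571 ± 22.7 in WT at P2, the galectin at 11.4 ± 5.22 and 11.6 ± 1.83, and ALP-M at 0.12 ± 0.11 and 0.40 ± 0.19. In ALP-M the WT level at P4 thus lay well above its level at P2, and in the galectin too, while the TBH values stayed in the same range.

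The change of the line effect between the stages was tested as an interaction in the same limma fit. It passed for 12 of 4289 genes (0.28%), of which 9 were among the 117 called at P4, and it did not pass for GSTD3 (adjusted p = 0.314), SPARC (0.44), the galectin (0.474) or ALP-M (0.056), so a difference between the stages is not shown for them. Of the genes named here it passed for BGIBMGA003014 and the U1 copy ENSRNA022710950. BGIBMGA003014 stood at 6.85, 8.14 and 1.89 in TBH and 6.34, 6.19 and 3.01 in WT at P2, a stage at which the lines overlapped. Of the 12 genes, 5 had passed downward at P4, and in each of these 5 all TBH samples at P4 were listed at 0 and no P2 sample of either line exceeded 0.76. They were thus above 1 at P4 in WT ovaries and in no other group. The P4 part of this pattern was fixed by the filter, which genes at 0 in TBH could reach only through WT. The P2 values had no part in the filter.

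**Figure D5:**
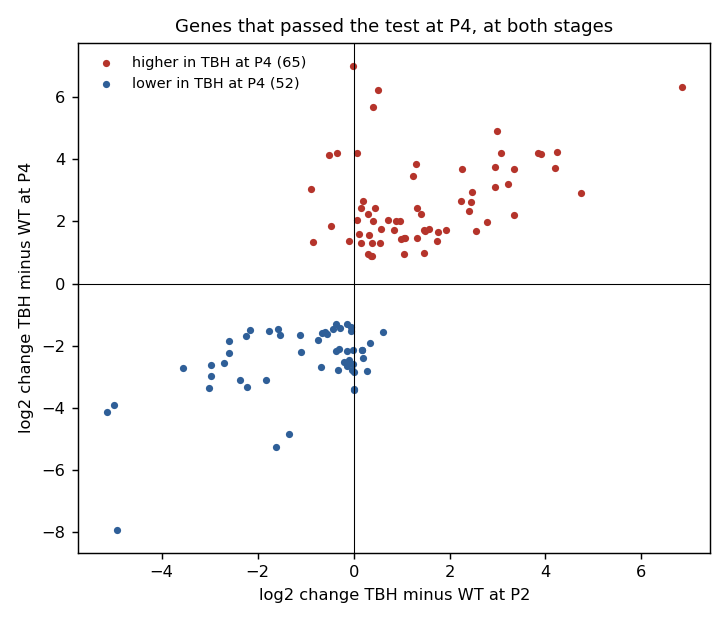
Log2 change between TBH and WT at P4 (vertical axis, median not subtracted) against that at P2 (horizontal axis) for the 65 genes that rose and the 52 that fell at P4. Of the genes that rose, 58 lie right of 0 at P2, and of those that fell, 43 lie left of it, while a cluster of both lies near 0 at P2.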

How the data were processed

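The deposited table gives 1 value per gene and sample, a normalized expression signal that the authors computed. Its unit is not named, and the submitters' processing notes list Cufflinks and DESeq2 without versions or roles. No source used here gives the aligner, annotation or genome build. The depth in reads is therefore unknown, and no counting interval can be stated. Samples were grouped by line and stage from their titles. The log2(value + 1) was analysed, unscaled, for the 4289 genes that reached 1 in 3 or more of the 6 P4 samples. A 0 in 1 or more P4 samples occurred for 758 of them. The pseudocount of 1 shrinks differences between low values.

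In R 4.3.3, limma 3.58.1 (lmFit, contrasts.fit, then eBayes with its trend option) estimated 1 mean for each of the 4 groups from all 12 samples, and p-values of TBH minus WT at P4 were adjusted after Benjamini and Hochberg over all tested genes, with a threshold of 0.05. A log2 change carries the model's standard error, and a level the SD of 3 samples. Nothing in the labels says that the samples come from separate animals, so p-values measure only the spread between these samples, which may be technical. Two-sided exact permutation tests compared shares of the listed values. Names and products came from the table itself, since 0 gene IDs matched the RefSeq table, and no coordinates or sequences are given.

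On values simulated with each gene's mean and spread (5 runs, 200 genes changed among 4289), the fit for this comparison found 23.9% of the genes given a log2 change of 1, 76.7% for 2 and 91.5% for 3, and 5.33% of its calls were false. The changed genes were drawn only from those at higher mean levels, so the shares found do not cover genes at low values, where many calls lie. The simulation used normal errors and had no sample that stands apart.

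Genes were sorted into 30 lists by key words in name and product. The members and lists were chosen with earlier results of these data known. The rule takes all named genes that passed, up to 3 members with the smallest p and 2 with the highest level of each list with at least 3 tested members, up to 2 unnamed genes each way, and the named genes just inside and outside the threshold. PRO-PO2 and VG were added as markers. The 4 other cecropin B copies, TRAF6, BMORCPR115, the alpha and zeta subunits of CCT, the chorion-specific C/EBP, myosin light polypeptide 9 and the U1 copy ENSRNA022711048 were chosen after their values were seen. Of the 123 genes named by the rule the text gives 58. The other 65, of which 1 passed, are not reported here one by one, and the counts include them.

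The 18 alternatives were quantile normalization, equal totals, centring on each sample's median, no filter, a mean of at least 10, the filter over 12 samples, a pseudocount of 0.1, no trend, the 6 P4 samples alone, sample weights, the replicate number as a block (12 or 6 samples), and each P4 sample left out. Counts of up to 18 arise because a gene can fail a stricter filter.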

Additional observations from a re-analysis of the deposited data

Results flagged for a closer look

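For 2 of the genes named above, the difference between TBH and WT at P4 itself differed from that at P2 in the interaction test of the limma fit. BGIBMGA003014, without a name, had an interaction of 7.02 on the log2 scale (adjusted p = 0.0091), since the lines overlapped at P2, at 6.85, 8.14 and 1.89 in TBH and 6.34, 6.19 and 3.01 in WT, and were 118-fold apart at P4. The level of both lines at P2 was near that of WT at P4.

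The U1 copy ENSRNA022710950 had an interaction of -10.69 (adjusted p = 0.021). It was listed at 0 in all 3 WT samples at P2, where TBH stood at 27.8, 123 and 70.6, and at P4 the order was the other way, with TBH listed at 0, 0 and 24.1 and WT at 201, 109 and 19.1. As a copy of a near-identical multicopy RNA its values are uncertain, and the part of reads shared between copies was not tested.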

How the results depend on the processing

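The counts of genes that passed, 65 higher and 52 lower, depended on the setting. They were 78 and 96 with quantile normalization, 42 and 49 with centring, 33 and 18 with a mean of at least 10, 51 and 34 with a pseudocount of 0.1, 99 and 74 on the 6 P4 samples alone, and 288 and 243 with sample weights. Leaving out 1 sample gave 36 to 58 higher and 25 to 35 lower. Each such fit pools the spread over all groups and assumes that the remaining samples vary alike. Sample weights gave TBH P4 replicate 3 a weight of 0.272, and WT P2 replicates 1 and 2 weights of 0.375 and 0.17. The spread of these P2 samples enters the P4 test in every fit over 12 samples. With the replicate number as a block the counts were 39 and 31 over 12 samples and 57 and 54 over 6. Deviations of same-numbered P4 samples correlated at 0 to 0.01. This cannot tell whether same-numbered samples were handled together, and the labels do not say. The cause of these differences in counts was not tested.

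Of the single genes named, the relative log2 change took the other sign for VG without WT P4 replicate 2 (0.12, against -0.84 without WT P4 replicate 3), for TUA1 with quantile normalization (0.11), and for muscular protein 20 (BGIBMGA001201) with sample weights (0.05) and without TBH P4 replicate 3 (0.01, against -0.51 without TBH P4 replicate 1). None of the 3 had passed. The ribosomal protein share, lower in TBH on average, was 0.309 percentage points higher in TBH without TBH P4 replicate 3 and -5.72 points without TBH P4 replicate 2. Calls of GSTD3, the beta-hexosaminidase, ALP-M, BGIBMGA003014, BGIBMGA000885 and BGIBMGA012753 held in all alternatives that gave a value. Of these, ALP-M and BGIBMGA000885 had reached the filter only through the line in which they were higher. The unknown unit and depth limit what can be said of genes at values near 1, and 3 samples a group limit small changes.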

Other observations

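Several shorter lists gave no call at P4. Of the vacuolar ATPase, the proton pump of acidic organelles, 0 of 4 tested genes passed and the median log2 change was 0.04 above that of all genes. The 3 tested mitochondrial ribosomal proteins had a median of -0.12 relative to all genes, the 4 nervous system genes -0.27, the 3 silk gland genes -0.11 and the 2 chemosensory genes -0.52, with 0 passing in each. Fibroin heavy chain, the main silk protein, was at 0 in all 6 samples, and the nervous system list summed to 4.98 to 14.4 in TBH and 7.19 to 23.8 in WT.

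Across the 4289 tested genes, which are not independent replicates, each TBH sample at P4 correlated more closely with the mean of TBH at P2 (0.915 to 0.929) than with the mean of WT at P2 (0.896 to 0.901). Each WT sample at P4 correlated more closely with WT at P2 (0.904 to 0.908) than with TBH at P2 (0.880 to 0.886). TBH P4 replicate 3, which stood apart at P4, had the lowest of the 3 correlations with TBH at P2.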
